A study of Mus musculus with 37 samples.

Results

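Sterol and fatty acid synthesis was followed in bone marrow-derived macrophages (BMDMs) through 35 genes of 24016 in the deposited table. The genes were taken by symbol: the SREBP transcription factors and their retention proteins, the enzymes from acetyl-CoA to cholesterol, a sterol carrier, the enzymes that build, desaturate and elongate fatty acids, and 2 acyl-CoA synthetases. The rule used the symbols alone. The study compared WT C57BL/6J macrophages with macrophages of Arntl-/- mice, which lack the core clock activator Bmal1 in the whole body. The labels and the study's methods give the WT mice as a purchased strain, while elsewhere the study calls them littermates. If they were purchased, a difference of genetic background or housing cannot be told apart from the genotype. Male mice aged 6 to 9 weeks gave bone marrow that was grown for 6 days in M-CSF, and the cells were left unstimulated (0 h) or treated with Kdo2-lipid A (KLA), the lipid part of lipopolysaccharide that TLR4 recognizes, for 6, 24 or 48 h. Polyadenylated RNA was sequenced from 1 library for each genotype and time, 8 libraries in all. A difference between 2 of these libraries has no replicate check. An additive fit of genotype and time over the 8 libraries (limma), added after the values were seen, does give a test: it takes as its spread what is left, with 3 residual degrees of freedom, when both genotypes are assumed to change alike with time, so it tests neither genotype on its own nor a genotype difference at 1 time. No unstimulated library at 6, 24 or 48 h was analysed, so the time of KLA and the time in culture cannot be told apart.

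Cholesterol and fatty acids are both built from acetyl-CoA in the cytosol. SREBP2 (Srebf2) mainly drives the cholesterol genes and SREBP1 (Srebf1) mainly the fatty acid genes. Both factors are held in the endoplasmic reticulum by Insig proteins when sterols are plentiful, and the escort protein Scap carries them to the Golgi for activation when sterols are low. In macrophages, TLR4 signaling is known to reshape sterol and fatty acid metabolism along with inflammatory gene expression.

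Levels are given as scaled FPKM, the deposited fragments per kilobase and per 10000000 reads after correction for library size, which can be compared between genes because they are per length. Differences are given as log2 of scaled FPKM plus 0.1, and a gene was called when it was at least 1.5-fold higher or lower. Calls were made among the 8628 genes with a mean of at least 100 normalized reads (scaled FPKM times length in kilobases, or reads per 10000000) over the 8 libraries. Of the 35 members, 27 passed this filter, and Hmgcs1, Mvk, Tm7sf2, Acss2, Acacb, Scd1, Elovl6 and Fads2 did not. Values in a row of 4 are scaled FPKM at 0, 6, 24 and 48 h, and differences are on the log2 scale. The 8 members below the filter enter no count, and their values are given as descriptions. Ranges written after a difference are exact 95% counting intervals on the log2 scale, which cover the sampling of reads in those 2 libraries only.

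The libraries held 8587560 to 27036783 reads on genes, with the deepest at 6 h in WT and the shallowest at 48 h in both genotypes. Scaling factors ran from 0.918 to 1.13. Arntl itself was at 34.3, 32.3, 35.6 and 38.7 scaled FPKM at 0, 6, 24 and 48 h in WT and at 13.9, 11.3, 18.8 and 20.2 in Arntl-/- macrophages, lower at each time but not at 0. Macrophage markers were high throughout: all 9 passed the filter, and their summed level was 21419 scaled FPKM at 0 h and 39202 at 48 h in WT, against 18017 and 35171 in Arntl-/- macrophages, with 16036 at 6 h in WT the lowest of the 8. Of 4 adipocyte markers, 3 had at most 3 reads in every library, among them Adipoq and Plin1 at 0. The summed level of 6 fibroblast or stromal markers, of which 3 passed the filter and none was at 0 throughout, was 393 at 0 h and 1083 at 48 h in WT, against 306 and 669 in Arntl-/- macrophages. At 0 and 48 h, Col1a1, Col1a2 and Col3a1 were lower in Arntl-/- than in WT, and Dcn and Lum were higher. The 5 neutrophil markers in the table, none of which passed the filter and 2 of which had at most 3 reads in every library, summed to 56.0 at 0 h and 7.58 at 48 h in WT, against 138 and 29.0 in Arntl-/-. These sums thus moved between 0 and 48 h along with the members described next. Their part in any result was not tested, and fewer cells of a type cannot be told apart from less RNA per cell.

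Late after KLA, Fasn, Stard4, Acsl3 and several sterol enzymes were lower than at rest in both genotypes, and Insig2 and Acsl1 were higher. At 48 h against 0 h, 9 of the 27 members (33.3%) were called lower in WT, where 12.8% of all genes were, and 11 (40.7%) in Arntl-/- macrophages, where 15.2% were. In the other direction, 3 members (11.1%) were called higher in each genotype, beside 11.3% of all genes in WT and 14.1% in Arntl-/-. Thus the share of members called lower lay above the background in both, and the share called higher did not. The 2 genotypes shared 7 members called lower (Insig1, Idi1, Sqle, Cyp51, Stard4, Fasn and Acsl3), 25.9% of the 27, beside 9.46% of all genes called lower in both. They shared Insig2 and Acsl1 among those called higher, beside 8.63% of all genes.

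In the additive fit (limma, Benjamini-Hochberg adjusted p under 0.05 over the 8628 genes), 15 members were lower and 4 higher at 48 h than at 0 h over both genotypes, beside 19.9% and 19.2% of all genes. The smallest adjusted p values among those lower were those of Acsl3 (log2 difference -1.71 ± 0.19 SE, adjusted p = 9.53e-06), Fasn (-1.48 ± 0.17, 1.05e-05) and Stard4 (-1.41 ± 0.17, 2.26e-05), and among those higher that of Acsl1 (1.61 ± 0.14, 1.4e-06). Of the sterol steps, Idi1 (-1.23 ± 0.20, adjusted p = 0.00028), Cyp51 (-1.07 ± 0.20, 0.000739) and Sqle (-0.86 ± 0.15, 0.000527) were among the lower, and Mvd (0.62 ± 0.16, 0.00796) was higher. When each library was left out in turn, the count of 19 ranged from 12, without the Arntl-/- 0 h library, to 19. Acsl1, Acsl3, Cyp51, Fasn, Idi1, Insig1, Insig2, Scd2, Sqle and Stard4 passed in all 11 fits run, those 8 and the fits at the main, deposited and level-corrected scaling.

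**Figure D1:**
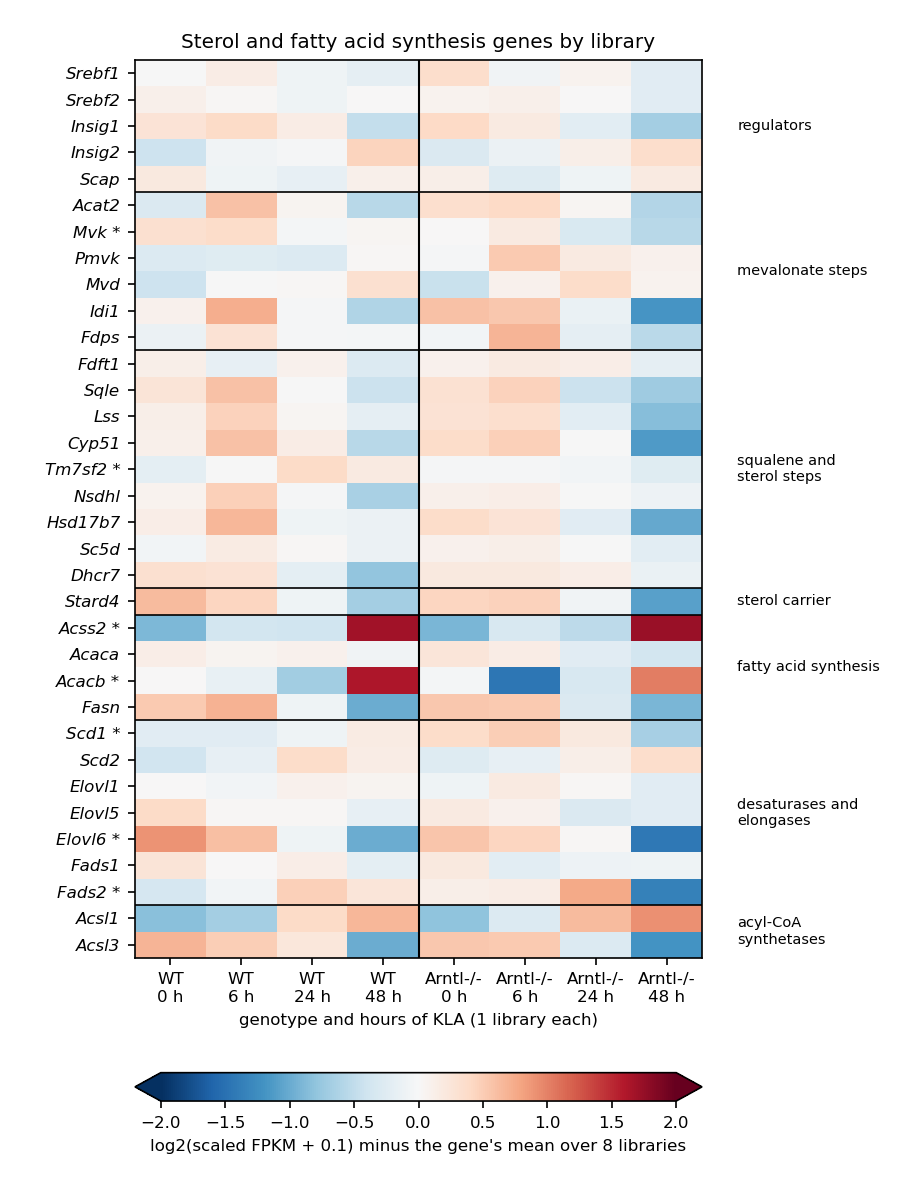
Level of each member in each of the 8 libraries, as log2(scaled FPKM + 0.1) minus that gene's mean over the libraries. Columns are genotype and hours of KLA with 1 library each, rows are ordered by role, and an asterisk marks members below the filter on low values. Hmgcs1, listed at 0 throughout, is not drawn. Most sterol enzyme rows turn blue at 48 h in both genotypes, and the Acsl1 and Acss2 rows turn red.

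For many members the lowest level came at 48 h. Of the 27 members, 18 had their lowest level at 48 h in WT and 19 in Arntl-/- macrophages, where 31.1% and 36.0% of all genes did. The highest level fell at 6 h for 12 members in WT and 13 in Arntl-/-, beside 19.4% and 18.7% of all genes. Between 24 and 48 h, the median log2 difference of the 13 sterol synthesis steps that passed the filter was -0.36 in WT, with 11 of 13 below 0, and -0.32 in Arntl-/-, with 13 of 13 below 0. Over the 27 members the median of this interval was -0.21 in WT and -0.29 in Arntl-/-, and their median difference of 24 h from 0 h was -0.08 in WT and -0.28 in Arntl-/-. Between 24 and 48 h all genes had a median of 0.02 in WT and -0.03 in Arntl-/-.

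At 6 h, most WT sterol enzymes stood above their resting level, although few passed 1.5-fold. The median log2 difference of the 13 steps was 0.39 in WT, with 11 of 13 above 0, and 0.07 in Arntl-/-, also with 11 of 13 above 0, beside medians of all genes of -0.05 and 0.01. Acat2 and Idi1 were higher in WT, 7.41% of members beside 3.18% of all genes, and Fdps was higher in Arntl-/-, 3.7% beside 2.29%. None was called lower at 6 h in either genotype, where 3.05% and 1.6% of all genes were. The 6 h values in WT came from the deepest library, in which the 10% of genes with the highest level had a median log2 deviation of -0.38 from the mean of the 8 libraries and the 10% with the lowest level 0.10. When each library was corrected for this relation to level, the median of the 13 steps at 6 h was 0.34 in WT and 0.11 in Arntl-/-. With the FPKM as deposited it was 0.55 and 0.01, beside medians of all genes of 0.11 and -0.05. The 48 h libraries deviated the other way, with 0.32 in WT and 0.28 in Arntl-/- for the 10% of genes with the highest level and -0.12 and -0.10 for the 10% with the lowest. The 48 h median of the 13 steps was -0.29 in WT before this correction and -0.18 after it, against -0.48 and -0.44 in Arntl-/-. The median of the 27 members was -0.27 before and -0.17 after it in WT, against -0.40 and -0.34 in Arntl-/-. No member passed the additive fit at 6 h (limma), beside 1.4% of all genes higher and 0.209% lower. At an unadjusted p under 0.05 there were 6 members (22.2%), beside 9.55% of all genes. Without the Arntl-/- 6 h library the share of members was below that of all genes. When any other library was left out, it stayed above.

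At 24 h, Scd2 and Acsl1 were called higher and Stard4 and Fasn lower in WT. That was 7.41% of the members in each direction, near the 6.91% and 6.49% of all genes. In Arntl-/- macrophages at 24 h, Mvd and Acsl1 were called higher, 7.41% of the members and near the 6.79% of all genes. In the same comparison 6 members were called lower (Insig1, Idi1, Sqle, Hsd17b7, Fasn and Acsl3), 22.2% of the members beside 7.24% of all genes. Corrected for expression level, Hsd17b7 (-0.51) was not called there. In the additive fit (limma), 5 members were lower and 4 higher at 24 h, beside 8.98% and 9.67% of all genes, and these fell to 0 lower and 2 higher without the Arntl-/- 0 h or the Arntl-/- 24 h library, to 2 and 2 without WT 24 h, and to 4 and 1 without WT 0 h. The comparisons of 6, 24 and 48 h within a genotype share its 0 h library, and all rest on it.

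Among the regulators, no SREBP or Scap transcript was called at 1.5-fold in any comparison, and the Insig pair moved in opposite directions. In the additive fit (limma), Srebf1 was lower at 48 h than at 0 h over both genotypes (-0.38 ± 0.14 SE, adjusted p = 0.0455). With level correction Srebf1 did not pass that fit. Srebf1, at chr11:60012591-60034106 (mm9), was at 187, 208, 178 and 166 scaled FPKM in WT and 238, 178, 197 and 159.6 in Arntl-/- macrophages at 0, 6, 24 and 48 h. Srebf2 was at 288, 271, 252 and 268 in WT and 280.5, 287, 269 and 229 in Arntl-/-. The largest of their differences from 0 h was -0.58 for Srebf1 in Arntl-/- at 48 h (-0.69 to -0.47), just inside the 1.5-fold line, and -0.75 with the FPKM as deposited, past it. Scap, the SREBP escort, ran from 84.6 to 117 scaled FPKM over all 8 libraries and was within 1.5-fold in every comparison. In the annotation of this build, 18.9% of the exon bases of Scap also lie in exons of a gene on the other strand, and reads were counted on both strands.

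Insig1 and Insig2 encode the proteins that retain SREBP in the endoplasmic reticulum, and Insig1 is itself a classical SREBP target. Insig1 (chr5:28397952-28405202) stood at 223, 242, 205 and 132 scaled FPKM in WT and 243, 209, 159 and 116 in Arntl-/- macrophages. Its level was lowest at 48 h in both genotypes, with differences from 0 h of -0.75 (-0.91 to -0.60) in WT and -1.07 (-1.23 to -0.92) in Arntl-/-. Insig2 (chr1:123200930-123229166) went the other way, from 99.8 at 0 h through 127 and 131 to 181 at 48 h in WT, and from 109 through 123 and 144 to 169 in Arntl-/-. That was a difference of 0.86 in WT and 0.63 in Arntl-/-, so at 48 h the Insig2 level exceeded that of Insig1 in both genotypes, the reverse of their order at 0 h. With the FPKM as deposited, the Arntl-/- difference of Insig2 at 48 h was 0.46 and was not called.

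The mevalonate steps carry acetyl-CoA to the isoprenoid units from which sterols are assembled. Idi1 (chr13:8884852-8891642), the isomerase of isopentenyl diphosphate, varied most of the 5 that passed the filter: it was at 115, 179, 107 and 71.8 scaled FPKM in WT and 164, 158, 99.1 and 47.9 in Arntl-/- macrophages at 0, 6, 24 and 48 h. In WT it peaked at 6 h, by 0.64 against 0 h (0.52 to 0.76), whereas in Arntl-/- it was highest at 0 h and differed by -0.06 at 6 h (-0.17 to 0.06). By 48 h it had dropped to 1.60-fold below rest in WT and 3.42-fold below in Arntl-/-, on the log2 scale -0.68 and -1.78.

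Acat2, the cytosolic thiolase that starts the pathway, was at 66.7, 122, 83.8 and 55.2 in WT and 102, 107, 83.3 and 54.3 in Arntl-/-. Its WT level peaked at 6 h, with a log2 difference of 0.87 (0.68 to 1.06), whereas in Arntl-/- the 6 h level differed from rest by 0.07 and the 48 h level by -0.92. Fdps, farnesyl diphosphate synthase, was at 179, 234, 189 and 187 in WT and 185, 309, 170.3 and 133 in Arntl-/-, with its peak at 6 h in each, where the difference from rest was 0.39 (0.24 to 0.54) in WT and 0.74 (0.60 to 0.88) in Arntl-/-. Pmvk and Mvd were not lower at 48 h than at 0 h. Mvd, the decarboxylase of mevalonate diphosphate, was at 70.4, 93.0, 95.2 and 117 in WT and 68.7, 99.9, 121 and 97.9 in Arntl-/-, and was called higher at 48 h in WT (0.73) and at 24 h in Arntl-/- (0.81). Pmvk, phosphomevalonate kinase, was at 76.5, 78.6, 77.2 and 94.4 in WT and 91.5, 134, 105 and 98.7 in Arntl-/-, with its largest difference from 0 h at 6 h in Arntl-/-, 0.55, not called, and 0.60 with level correction, past the line. Mvk, mevalonate kinase, lay below the filter with 72 to 520 reads, at 62.8, 64.7, 49.0 and 51.5 in WT and 50.6, 57.1, 40.5 and 34.1 in Arntl-/-. Hmgcs1, the HMG-CoA synthase, is listed at 0 in all 8 libraries. Its row lies on chr13_random in this build, a sequence not placed on the chromosome, so the listing gives no level for this gene.

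From squalene on, all 8 enzymes that passed the filter were below their 0 h level at 48 h in both genotypes, with median log2 differences of -0.52 in WT and -0.67 in Arntl-/-, beside medians of all genes of 0.0038 and 0.0012. In each genotype 4 of the 8 were called lower, beside 12.8% of all genes in WT and 15.2% in Arntl-/-. Cyp51 (chr5:4080674-4104697), the lanosterol demethylase, was at 62.6, 87.5, 64.8 and 39.9 scaled FPKM in WT and 75.1, 81.6, 58.2 and 26.5 in Arntl-/- macrophages. Sqle (chr15:59146647-59162748), squalene epoxidase and a rate-limiting step, was at 123, 154, 102 and 75.9 in WT and 127, 141, 76.2 and 62.3 in Arntl-/-. Both genes were highest at 6 h and lowest at 48 h in each genotype, where Cyp51 differed from rest by -0.65 in WT (-0.88 to -0.43) and -1.50 in Arntl-/- (-1.76 to -1.25), and Sqle by -0.69 and -1.02. Corrected for expression level, Cyp51 in WT was at -0.53 and not called, which leaves 6 members called lower in both genotypes.

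The other called sterol enzymes were called in only 1 genotype at 48 h, and in no case was the difference between the genotypes' changes tested. Lss, lanosterol synthase, was at 76.6, 98.0, 72.5 and 62.6 in WT and 86.3, 89.5, 61.1 and 39.2 in Arntl-/-, with 48 h differences of -0.29 and -1.14. Hsd17b7 (chr1:171879668-171899336), a sterol keto-reductase, was at 33.8, 49.0, 29.0 and 28.4 in WT and 39.9, 37.2, 26.3 and 15.2 in Arntl-/-, with differences of -0.25 and -1.39. Both were called lower in Arntl-/- alone.

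Dhcr7 and Nsdhl showed the converse. Dhcr7 (chr7:151009072-151034315), the reductase of the last step to cholesterol, was at 63.9, 62.4, 44.7 and 29.7 in WT and 58.6, 58.6, 56.4 and 46.6 in Arntl-/-, with 48 h differences of -1.10 (-1.43 to -0.80) and -0.33 (-0.59 to -0.07). Nsdhl, a sterol decarboxylating dehydrogenase, was at 53.6, 71.1, 50.6 and 32.6 in WT and 54.8, 56.0, 51.2 and 48.0 in Arntl-/-, with differences of -0.72 and -0.19. The 48 h Nsdhl values rest on 96 reads in WT and 136 in Arntl-/-.

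Sc5d, a sterol desaturase, stayed between 92.8 and 120.2 scaled FPKM in all 8 libraries. Fdft1, squalene synthase, had the highest level of the sterol enzymes at 0 h, 309 in WT and 302 in Arntl-/-, and ranged from 236 to 323. That level is uncertain: 26.9% of its annotated exon bases lie in exons of Ctsb on the other strand, counting ignored strand, and Ctsb stood at 2097 to 4921 scaled FPKM. Tm7sf2, a sterol reductase below the filter, was at 36.3, 41.3, 54.5 and 47.0 in WT and 40.8, 41.0, 40.3 and 35.03 in Arntl-/-, and 15.3% of its annotated exon bases also lie in exons of 1110014N23Rik on the same strand. Stard4, which carries cholesterol between membranes, was lower at each successive time in WT, at 97.8, 84.6, 59.2 and 39.3, and stood at 84.6, 86.7, 60.2 and 29.6 in Arntl-/-. Its 48 h differences of -1.31 and -1.52 made it the lowest of the sterol genes against rest in WT and second to Idi1 in Arntl-/-.

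**Figure D2:**
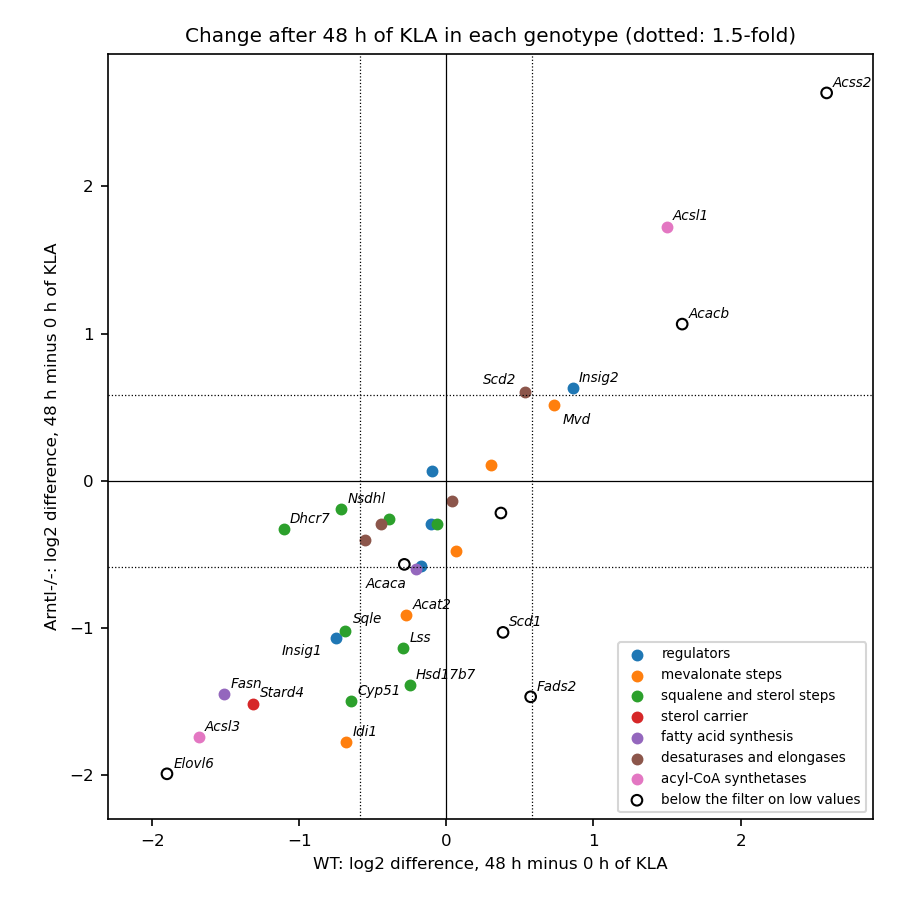
Log2 difference of 48 h from 0 h of KLA in WT (horizontal) and in Arntl-/- macrophages (vertical) for each member, 1 library per genotype and time. Filled points are the 27 members that passed the filter, colored by role, open points are members below it, and dotted lines mark 1.5-fold. Fasn, Stard4 and Acsl3 lie at the lower left, Acsl1 and Acss2 at the upper right, and Idi1, Cyp51, Lss and Hsd17b7 lower in Arntl-/- than in WT.

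Of the fatty acid synthesis enzymes, Fasn and Acss2 changed in opposite directions in both genotypes. Fasn (chr11:120667272-120685861), fatty acid synthase, was at 85.8, 96.9, 56.6 and 30.1 scaled FPKM in WT and 86.7, 86.3, 49.0 and 31.6 in Arntl-/- macrophages. At 48 h it was 2.85-fold below rest in WT and 2.74-fold below in Arntl-/-, with log2 differences of -1.51 (-1.67 to -1.35) and -1.45 (-1.61 to -1.30). At 24 h it was the 1 member of 27 (3.7%) called lower in both genotypes, near the 3.78% of all genes so called, and in WT the difference of -0.60 became -0.56 with level correction and was then not called.

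Acss2 (chr2:155343779-155388479), the cytosolic acetyl-CoA synthetase that makes acetyl-CoA from acetate, was at 12.6, 18.3, 17.8 and 75.9 in WT and 12.5, 18.9, 16.5 and 78.3 in Arntl-/-. The level stayed at 12.5 to 18.9 up to 24 h and was far higher at 48 h, where it was 6.00-fold above rest in WT and 6.21-fold in Arntl-/-, with log2 differences of 2.58 (2.22 to 2.98) and 2.64 (2.32 to 2.98). These rest on 75 and 285 reads in WT and on 110 and 283 in Arntl-/-. The gene has a mean under the filter because 6 of its 8 libraries were low. In the annotation, 7.49% of its exon bases overlap exons of other genes.

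Acaca, the main acetyl-CoA carboxylase of lipid synthesis, was at 32.3, 30.6, 31.3 and 28.0 in WT and 34.9, 32.5, 25.3 and 22.9 in Arntl-/-, and was called lower at 48 h in Arntl-/- (-0.60) and not in WT (-0.21). Corrected for expression level, the Arntl-/- difference was -0.41 and was not called. Acacb, the carboxylase isoform tied to fatty acid oxidation, was scarce, with 10 to 53 reads and 0.466 to 4.62 scaled FPKM. Its highest level was at 48 h in both genotypes, 4.62 in WT and 3.05 in Arntl-/-.

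The desaturases and elongases divided by level. Scd2, the stearoyl-CoA desaturase that was abundant here, was at 235, 273, 398 and 341 scaled FPKM in WT and 258, 274, 333 and 392 in Arntl-/- macrophages, called higher at 24 h in WT (0.76) and at 48 h in Arntl-/- (0.60). The latter call was lost with the FPKM as deposited (0.43) and with level correction (0.51). Scd1, its close relative, was far lower, at 11.6, 11.7, 12.9 and 15.2 in WT and 17.6, 19.2, 15.6 and 8.55 in Arntl-/-. The pair shared 145 of the 4787 runs of 50 bases in Scd1 transcripts, so reads from those runs cannot be assigned to one gene.

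Elovl1, which elongates very long saturated chains, was at 298 to 394 and within 1.5-fold in every comparison. Elovl5, which elongates polyunsaturated chains, was at 217, 168, 168 and 148 in WT and 187, 176, 135 and 142 in Arntl-/-, lower at 24 and 48 h than at 0 h in both genotypes without passing the line, although WT at 48 h was at -0.69 with the FPKM as deposited, past it. Fads1 likewise stayed within 1.5-fold, between 165 and 227. In the additive fit (limma), Elovl5 was lower at 24 h (-0.42 ± 0.13 SE, adjusted p = 0.037) and at 48 h (-0.48 ± 0.13, 0.00965). Fads1 was lower there at 48 h (-0.37 ± 0.12, 0.0302). Neither gene passed in all 11 fits. Elovl6, which turns palmitate into stearate, was lower at each successive time, at 9.68, 7.82, 4.82 and 2.52 in WT and 7.60, 6.95, 5.24 and 1.83 in Arntl-/-, with 20 and 14 reads left at 48 h. Its 48 h differences were -1.90 (-2.70 to -1.25) and -1.99 (-2.96 to -1.26). Fads2, the desaturase at the entry to polyunsaturated fatty acids, was at 35.04, 42.5, 61.5 and 52.2 in WT and 47.8, 49.0, 74.3 and 17.2 in Arntl-/-, highest at 24 h in each genotype, and its only library under its 0 h level was that of Arntl-/- at 48 h.

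The 2 acyl-CoA synthetases, which activate long-chain fatty acids, moved apart. Acsl1 (chr8:47556396-47621404) was the most abundant member and stood higher at each successive time: it was at 403, 453, 939 and 1138 scaled FPKM in WT and 412, 598, 1125 and 1363 in Arntl-/- macrophages at 0, 6, 24 and 48 h. At 48 h the log2 difference from rest was 1.5 in WT (1.44 to 1.56) and 1.73 in Arntl-/- (1.67 to 1.78), and 1.25 and 1.36 when corrected for expression level. Counting kept at most 3 reads per position, and Acsl1 reached 47.0% of the reads this allows, the highest share of any member. Acsl3 (chr1:78654400-78704318) was at 66.9, 58.4, 48.6 and 20.8 in WT and 60.6, 59.7, 34.3 and 18.1 in Arntl-/-, 3.21-fold and 3.34-fold below rest at 48 h. In the annotation 5.72% of the Acsl3 exon bases are also exon bases of Utp14b, whose level was 52.1 at 0 h and 14.8 at 48 h in WT, against 35.8 and 7.6 in Arntl-/-.

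**Figure D3:**
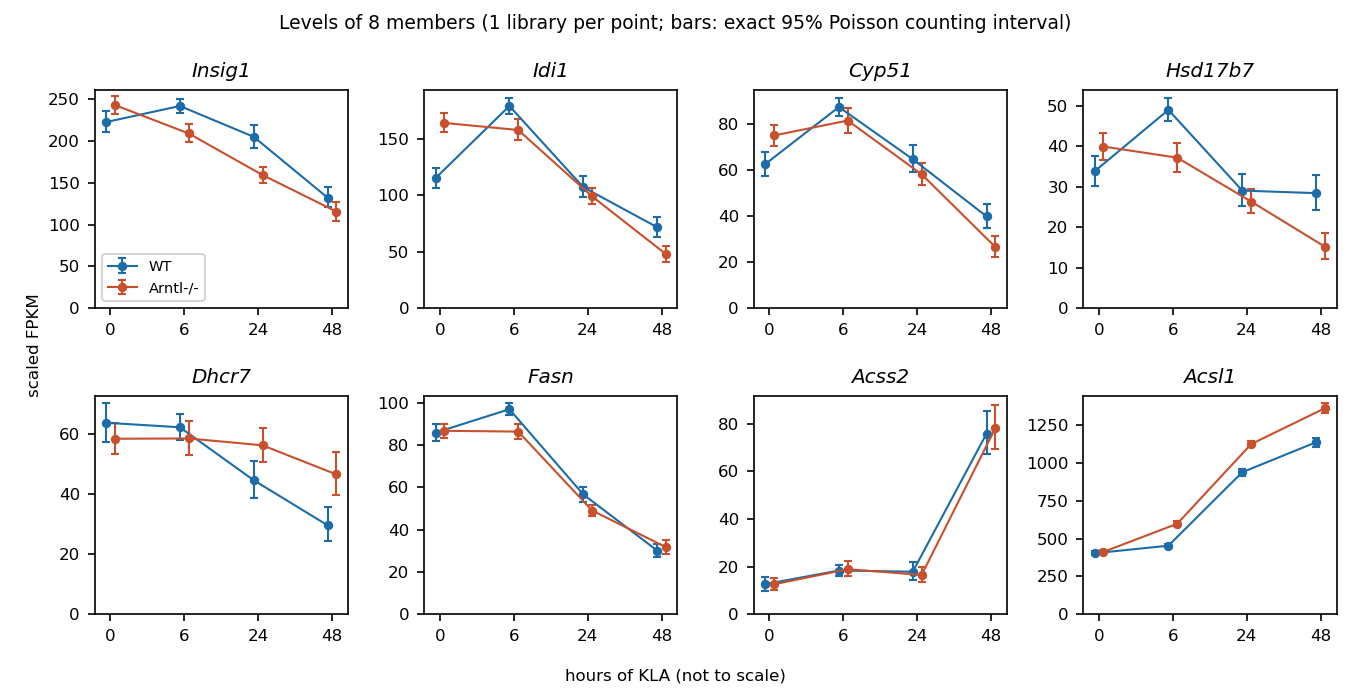
Scaled FPKM (vertical, from 0) of 8 members against hours of KLA (not to scale) in WT and Arntl-/- macrophages. Each point is 1 library, and bars are exact 95% Poisson intervals of its reads, covering counting error only. Acss2 is under 20 scaled FPKM to 24 h and over 70 at 48 h in both genotypes, Acsl1 climbs throughout, Fasn declines in parallel, and Hsd17b7 and Dhcr7 separate the genotypes at 48 h.

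Between the genotypes, most of these genes stayed within 1.5-fold at every time, but a smaller share of them did than of all genes. Of the 27 members, 21 (77.8%) were within 1.5-fold between genotypes at all 4 times, beside 88.5% of all genes. The other 6 passed the line at 1 time each, none at 2. In the additive fit (limma), which compares the genotypes over the 4 times, no member passed at an adjusted p under 0.05, beside 0.29% of all genes higher and 0.232% lower, and 2 members (7.41%) had an unadjusted p under 0.05, no larger a share than the 8.89% of all genes that did. These were Pmvk and Acsl1. Without the WT 0 h or the Arntl-/- 0 h library, the share of members at that unadjusted p was above that of all genes. When any other library was left out, it was below. Pmvk had a log2 difference of 0.38 ± 0.12 (SE, adjusted p = 0.295) and Acsl1 of 0.24 ± 0.10 (adjusted p = 0.522), each above 0 at 4 of 4 times. At 0 h only Acat2 was called higher in Arntl-/- macrophages, beside 1.37% of all genes, and none lower, beside 0.939%. At 6 h only Pmvk was called higher, beside 1.77%, and none lower, beside 0.8%. At 24 h none was called in either direction, beside 1.7% higher and 1.15% lower. At 48 h Dhcr7 was called higher, beside 2.97%, and Hsd17b7, Lss and Cyp51 lower, 11.1% of the members beside 3.14%.

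In resting cells, the sterol steps leaned higher in Arntl-/- macrophages: 10 of 13 were above 0, with a median log2 difference of 0.15 beside -0.03 for all genes, of which 45.9% were above 0. Acat2 was at 66.7 in WT and 102 in Arntl-/-, a log2 difference of 0.62 (0.42 to 0.82). Idi1 was at 115 and 164, a difference of 0.51 (0.38 to 0.64), not called, and 0.59 as deposited, past the line. Srebf1 differed by 0.35. At 6 h, 9 of 13 steps were below 0 with a median of -0.10, beside 0.02 for all genes, and Acat2 and Idi1 were at -0.18 and -0.18. With level correction the median was -0.02 beside -0.01, Acat2 was at -0.11 and Idi1 at -0.14.

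Pmvk, the only member called at 6 h, was at 78.6 in WT and 134 in Arntl-/- at that time, a log2 difference of 0.77 (0.58 to 0.97). It was above 0 at all 4 times, with 0.26, 0.44 and 0.06 at 0, 24 and 48 h. Acsl1 was the other member above 0 at all 4 times, with 0.03, 0.40, 0.26 and 0.26, and 0.19, 0.10, 0.38 and 0.30 after correction for level. These 2 of 27 members compare with 8.06% of all genes above 0 at every time. None of the 27 was below 0 at all 4 times, as 7.34% of all genes were, although Mvk, under the filter, was, with -0.31, -0.18, -0.27 and -0.59.

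**Figure D4:**
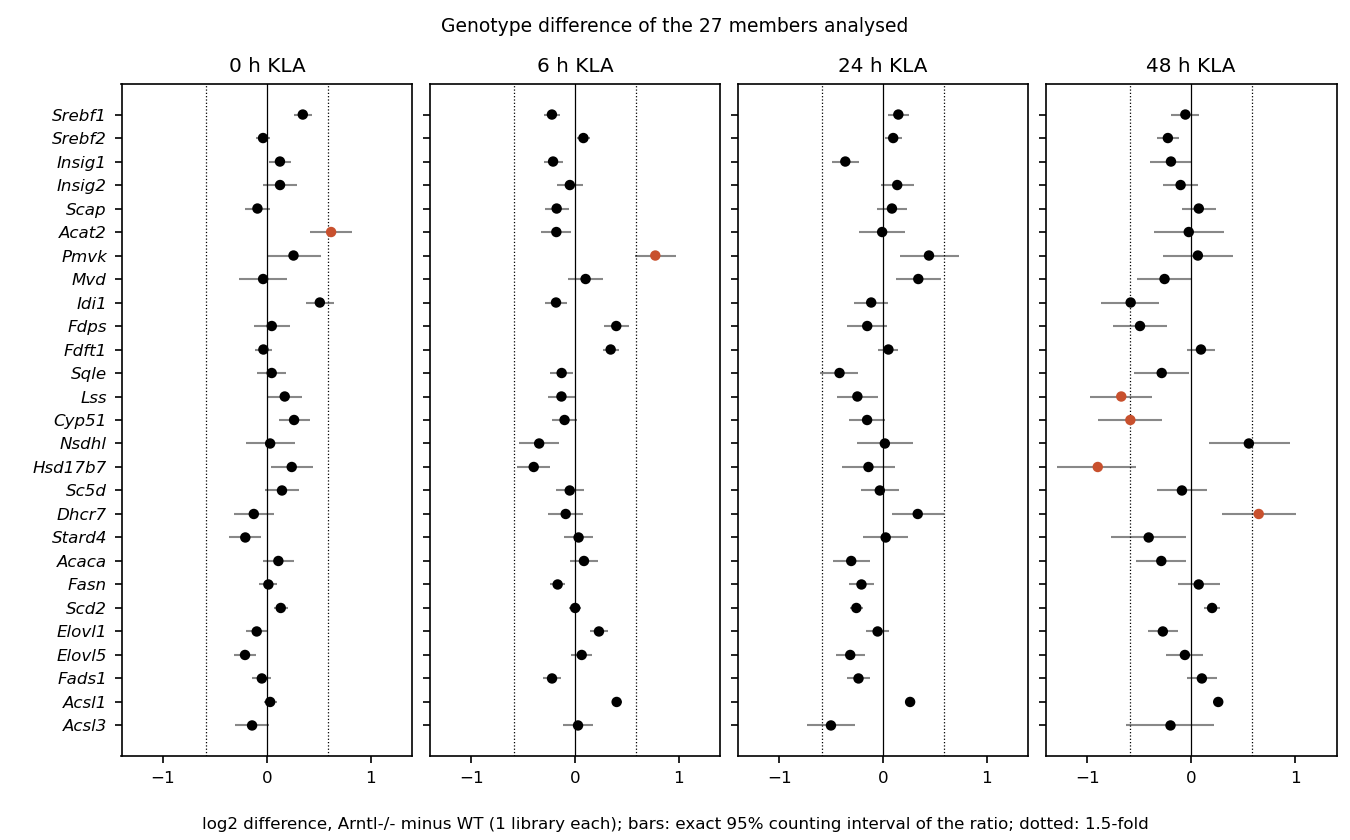
Log2 difference of Arntl-/- from WT for the 27 members that passed the filter, in 1 panel for each time of KLA. Points compare 1 library with 1 library, bars are exact 95% counting intervals of the ratio, dotted lines mark 1.5-fold and colored points lie past it. At 48 h Hsd17b7, Lss and Cyp51 lie below the line and Dhcr7 above it.

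At 48 h the sterol enzymes spread in both directions. Hsd17b7 was at 28.4 in WT and 15.2 in Arntl-/-, from 173 and 89 reads, a log2 difference of -0.90 (-1.29 to -0.53). Lss was at 62.6 and 39.2, a difference of -0.67 (-0.97 to -0.38). Cyp51, at 39.9 and 26.5, lay just past the line at -0.59 (-0.90 to -0.28), and Idi1, at 71.8 and 47.9, just short of it at -0.58 (-0.87 to -0.31). With the FPKM as deposited, Cyp51 was at -0.54 and Nsdhl at 0.60, which gave 2 members called higher and 2 lower in place of 1 and 3.

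In the opposite direction, Dhcr7 was at 29.7 in WT and 46.6 in Arntl-/- at 48 h, a difference of 0.65 (0.30 to 1.01), and Nsdhl at 32.6 and 48.0, a difference of 0.56 (0.17 to 0.95). Over the 13 steps, 9 were below 0, with a median of -0.26 beside -0.02 for all genes. The counting intervals of these 48 h differences are wide, since both libraries are the shallowest of their genotype.

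Among members below the filter, Fads2 showed the widest genotype difference. It was at 52.2 in WT and 17.2 in Arntl-/- at 48 h, 3.02-fold lower, from 104 and 33 reads, a log2 difference of -1.60 (-2.21 to -1.02). At 0, 6 and 24 h it was above WT, by 0.45, 0.21 and 0.27. Scd1 turned in the same way, with 0.59, 0.71 and 0.28 at the first 3 times and -0.82 at 48 h (-1.34 to -0.34). Fasn and Acss2, by contrast, differed between genotypes at 48 h by 0.07 (-0.13 to 0.28) and 0.04 (-0.20 to 0.29).

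The scaling shifts these counts. Without size factors, the median log2 difference of all genes was 0.11 at 6 h and -0.13 at 48 h against 0 h in WT, -0.17 at 48 h in Arntl-/-, and -0.11 between genotypes at 6 h. On those values, the members called at 48 h in Arntl-/- were 1 higher and 13 lower in place of 3 and 11, with 8.92% and 22.2% of all genes called.

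Other genes of the same pathways behaved as follows. Of 15 further sterol genes, 14 passed the filter, with 1 called higher and 4 lower at 48 h in each genotype, beside the shares of all genes given above, and none called between genotypes at any time. Those called lower at 48 h included Acat1 and Erlin1 in both genotypes, the latter with differences of -0.65 in WT and -0.73 in Arntl-/-, Msmo1 in WT and Erlin2 in Arntl-/-. Npc2, which carries cholesterol in the lysosome, was the gene called higher, with 0.79 and 1.02. Acat1, the mitochondrial thiolase, was at 108 scaled FPKM at 0 h and 52.9 at 48 h in WT, against 96.5 and 49.6 in Arntl-/-. Of 18 further fatty acid and lipid genes, 11 passed the filter. At 48 h, Mecr was called lower in WT (-1.20), where 12.8% of all genes were. Dgat1, an enzyme of triglyceride synthesis, was called higher in Arntl-/- (1.03), where 14.1% were. Mecr, a reductase of mitochondrial fatty acid synthesis, was the only one of the 11 called between genotypes at any time. It was higher in Arntl-/- at 48 h (1.02), beside 2.97% of all genes. All 7 genes of the LXR and cholesterol efflux list passed, with 3 called higher in WT and 4 in Arntl-/- at 24 h, 5 and 4 at 48 h, none lower at these times. All genes called higher were 6.91% and 6.79% at 24 h and 11.3% and 14.1% at 48 h. At 6 h the list went otherwise, with Abca1 (-0.66) and Apoe (-0.74) called lower in WT, where 3.05% of all genes were, and Nr1h3 (0.63) higher in Arntl-/-, where 2.29% were. Between genotypes, 1 of the 7 was called lower in Arntl-/- than in WT at each of 0, 24 and 48 h, beside 0.939%, 1.15% and 3.14% of all genes. Of the genes named in these 3 lists, Erlin1, Erlin2, Msmo1, Npc2, Mecr, Dgat1 and Nr1h3 were chosen after their values were seen. Abca1, the cholesterol exporter to lipid-poor apolipoprotein, was at 195, 124, 422 and 299.95 scaled FPKM in WT and at 184, 145, 359.8 and 351 in Arntl-/- at 0, 6, 24 and 48 h. Abcg1, the exporter to mature lipoprotein, was at 134, 117, 222 and 276 in WT and at 118, 98.8, 216 and 266 in Arntl-/-. Apoe, the apolipoprotein that accepts exported cholesterol, was at 1789.6, 1069, 3152 and 3868 in WT and at 1028, 1157, 2034 and 3289 in Arntl-/-. All 3 were called higher at 24 and 48 h in each genotype. Apoe was also the gene called between genotypes at 0 h (-0.80) and 24 h (-0.63). The one at 48 h was Nr1h3, which encodes LXR alpha, at -1.10.

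Ch25h makes an oxysterol that keeps SREBP in the endoplasmic reticulum, and it lay below the filter. It was at 39.9, 149.8, 55.8 and 79.5 scaled FPKM in WT and 34.2, 91.3, 24.0 and 47.9 in Arntl-/- macrophages at 0, 6, 24 and 48 h, with its peak at 6 h in both. Against WT, the Arntl-/- log2 difference was -0.22, -0.71, -1.21 and -0.73, from 81 to 987 reads.

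The reference promoters of members that moved together are shown for their sequence. RefSeq promoters (GRCm38.p6, 250 bases before to 50 after a transcript start) were found for 28 of the 35 members, 38 promoters in all. These coordinates are of another build than the mm9 positions above. The letters searched on both strands were CCAAT, a box bound by NF-Y, CACGTG, the E-box that Bmal1 with its partner Clock binds, and TCACNCCAC, a form of the sterol regulatory element. CCAAT was in 24 of the 38 member promoters and in 37.4% of all 32851 promoters, CACGTG in 7 and in 7.15%, and TCACNCCAC in 2, those of Hmgcs1 and Acsl1, and in 1.24%. A match describes letters only. The 250 bases upstream follow for the 5 of the 7 members called lower at 48 h in both genotypes that have an entry, for Hsd17b7, the lowest of the 27 against WT at 48 h, and for Acss2 and an Acsl1 start, which were higher, 5′ to 3′ on the gene's strand with matches in capitals:
Insig1 (chr5:28071162-28071411, plus strand): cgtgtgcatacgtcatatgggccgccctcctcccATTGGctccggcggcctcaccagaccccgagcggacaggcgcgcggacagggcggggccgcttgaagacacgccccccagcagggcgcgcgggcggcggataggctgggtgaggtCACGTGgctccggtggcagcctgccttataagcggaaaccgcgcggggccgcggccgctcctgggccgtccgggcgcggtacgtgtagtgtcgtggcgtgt
Idi1 (chr13:8885356-8885605, plus strand): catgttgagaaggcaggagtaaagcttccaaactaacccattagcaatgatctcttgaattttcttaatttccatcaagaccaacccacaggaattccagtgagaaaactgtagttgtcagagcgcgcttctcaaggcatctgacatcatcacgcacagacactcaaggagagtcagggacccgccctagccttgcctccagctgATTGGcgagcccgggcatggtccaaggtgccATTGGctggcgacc
Cyp51 (chr5:4104698-4104947, minus strand): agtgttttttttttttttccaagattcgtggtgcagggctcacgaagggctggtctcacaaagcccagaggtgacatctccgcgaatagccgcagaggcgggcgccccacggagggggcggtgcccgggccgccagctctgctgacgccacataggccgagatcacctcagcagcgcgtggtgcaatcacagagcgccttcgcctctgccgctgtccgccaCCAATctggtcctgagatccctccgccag
Fasn (chr11:120824548-120824797, minus strand): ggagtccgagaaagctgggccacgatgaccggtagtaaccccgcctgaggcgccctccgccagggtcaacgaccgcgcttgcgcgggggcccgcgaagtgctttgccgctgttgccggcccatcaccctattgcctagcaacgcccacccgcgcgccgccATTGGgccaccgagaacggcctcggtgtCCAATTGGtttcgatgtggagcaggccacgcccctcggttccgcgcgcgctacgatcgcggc
Acsl3 (chr1:78657575-78657824, plus strand): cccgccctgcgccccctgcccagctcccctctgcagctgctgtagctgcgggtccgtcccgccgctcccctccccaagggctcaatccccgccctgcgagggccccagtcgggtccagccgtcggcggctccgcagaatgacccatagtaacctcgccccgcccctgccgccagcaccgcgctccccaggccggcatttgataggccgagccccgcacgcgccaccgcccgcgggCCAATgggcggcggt
Hsd17b7 (chr1:169969206-169969455, minus strand): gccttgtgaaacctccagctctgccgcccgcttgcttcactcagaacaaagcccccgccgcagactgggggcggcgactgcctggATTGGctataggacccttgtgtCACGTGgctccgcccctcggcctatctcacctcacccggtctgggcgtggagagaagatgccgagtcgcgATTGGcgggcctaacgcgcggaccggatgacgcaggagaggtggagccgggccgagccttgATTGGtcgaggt
Acss2 (chr2:155517793-155518042, plus strand): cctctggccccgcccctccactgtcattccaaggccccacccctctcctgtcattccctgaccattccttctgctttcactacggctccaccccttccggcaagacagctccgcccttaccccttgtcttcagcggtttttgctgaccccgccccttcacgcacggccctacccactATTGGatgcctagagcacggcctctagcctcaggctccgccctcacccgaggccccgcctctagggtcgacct
Acsl1 (chr8:46490716-46490965, plus strand): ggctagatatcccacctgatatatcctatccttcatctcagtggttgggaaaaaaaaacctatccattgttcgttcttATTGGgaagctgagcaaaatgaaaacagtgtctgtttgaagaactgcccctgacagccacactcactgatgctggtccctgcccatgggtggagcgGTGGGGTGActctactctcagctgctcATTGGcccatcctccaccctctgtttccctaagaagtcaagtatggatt

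Each of these 8 stretches holds CCAAT on one or the other strand. By gene, 23 of the 28 members with an entry held it in at least 1 promoter, beside 41.1% of all genes. With the first base of a match counted back from the start, Idi1 has 2 matches, at -45 and -14, and Fasn has 3, at -90, -62 and -59, the last pair overlapping. Cyp51 has 1, at -29, Acsl3 has 1, at -15, and Acss2 has 1, at -73. Insig1 holds CCAAT at -216 and an E-box at -101. Hsd17b7 holds an E-box at -143 and CCAAT at -165, -73 and -12. The E-box also occurs in promoters of Dhcr7, Elovl5, Sc5d and Scap, of which Dhcr7 was higher and the others within 1.5-fold in Arntl-/- at 48 h. The Acsl1 start shown holds the sterol regulatory letters at -76, and a second annotated start of Acsl1 holds none of the 3. The table does not say which start was used.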

How the data were processed

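The deposited table gives FPKM per RefSeq gene that the authors made by aligning reads to mm9 with STAR and counting exons with HOMER, on both strands, with at most 3 reads per position and totals set to 10000000. Software versions are not given in the sources used here. From these values, median-of-ratios size factors over the 8 libraries were computed, and log2(scaled FPKM + 0.1) was compared between libraries in 10 comparisons. Calls at 1.5-fold were made among genes with a mean of at least 100 normalized reads (per 10000000). Low FPKM values were whole multiples of 1 read in every library (100% of them, within rounding and 2% of 1 read), which gave the reads behind each value and exact (Clopper-Pearson) 95% intervals, covering counting error only. The steps were tested on simulated data. With 1 library per condition, differences between 2 libraries carry no p-value. An additive genotype + time model over the 8 libraries, with 3 residual degrees of freedom, was fitted to all 8628 genes with limma 3.58.1 (R 4.3.3, moderated with a mean trend, Benjamini-Hochberg adjusted). It was added after the data were seen. Depth was 8587560 to 27036783 reads on genes. Libraries were grouped by their labels.

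All 35 members are named. Of other genes, the text names the deleted gene, Ch25h, markers, genes that overlap a member's exons, 7 genes behind small counts, and listed pathway genes past 1.5-fold the same way at 2 or more of the 3 times after KLA in both genotypes. Apart from the overlapping genes and 7 pathway genes behind small counts, which were added after the values were seen, this rule and the members and lists were chosen with earlier results of these data known. One further item is not reported here. In total 8 alternatives were tried for scaling, level correction, filter and pseudocount. The table also holds 4 columns of values that match no sample used here, which were not used, and 1 incomplete line was left out. Exon overlaps come from the NCBIM37 (mm9) annotation and promoters from RefSeq (GRCm38.p6). The analysis ran in Python 3.11.15. Intervals came from scipy 1.17.1, level correction from statsmodels 0.14.6, tables from pandas 2.3.3 with numpy 2.4.6, and plots from matplotlib 3.10.9.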

Additional observations from a re-analysis of the deposited data

How the results depend on the processing

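Libraries of the 2 genotypes pair by time only, which the additive fit (limma) uses; the labels give no replicate pairs within a condition. That fit's counts at 48 h and between genotypes stayed within 1.5 times with the FPKM as deposited and with level correction, and its 6 h count of 0 became 1 in both. Leaving out each library in turn gave 12 to 19 members at 48 h, 2 to 9 at 24 h, 0 to 1 at 6 h and 0 between genotypes. Of 80 recounts of called members, both directions together (10 comparisons under 8 alternatives), 67 stayed within 1.5 times the reported count. Between genotypes at 0 h the count of 1 became 2 with the FPKM as deposited, with a mean of at least 20 normalized reads, and with no filter. At 6 h the genotype count of 1 became 2 at the lower filter and 3 with no filter, and at 48 h the count of 4 became 7 and 8, since members with few reads then enter. All genes called there rose too, from 2.97% higher and 3.14% lower to 7.32% and 6.27% at the lower filter and 15.5% and 11.8% with no filter. By direction, the members called were 1 higher and 6 lower of 33 at the lower filter, and 1 higher and 7 lower of 34 with no filter. In both settings the share of members called lower lay above that of all genes, and the share called higher lay below it. The 24 h genotype count was 0 under every alternative. In Arntl-/- at 6 h against 0 h, the count of 1 became 2 with level correction, with the lower filter and with at least 100 normalized reads in a WT library, and 3 with no filter. In WT, the 6 h count of 2 became 4 as deposited and the 24 h count of 4 became 7 with no filter. With no filter, the median of the fatty acid synthesis genes at 48 h turned to 0.70 in WT (-0.86 over those that passed the filter) and to 0.23 in Arntl-/- (-1.03 likewise), because Acss2 and Acacb then join Fasn and Acaca. The pseudocounts of 0.01 and 1 and upper-quartile scaling moved no count of both directions together by over 1.5 times. By direction, upper-quartile scaling took the members called higher in Arntl-/- at 48 h against 0 h from 3 to 1. Depth limits the 48 h values most.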
